A study of Mus musculus with 24 samples.

Results

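Primitive erythroid cells taken one embryonic day apart, at E9.5 and at E8.5, were compared on 6 Illumina bead arrays of 1 slide, out of 24 arrays in the series. The 6 were chosen by their labels: E9.5 replicates 1 to 3 (n = 3) and E8.5 replicates 1 to 3 (n = 3), all prepared with 1 round of RNA amplification. Both stages carried the same transgene, human epsilon globin::H2B-EGFP, in which a human globin promoter drives a green histone fusion, and GFP(+) cells were sorted from whole embryos digested with collagenase. Each replicate pooled several embryos, so the p-values below measure only the spread between such pools. No other treatment or allele is given in the labels for either stage. The sort selects for activity of the human promoter, and cells that do not express it are not represented. RNA of E9.5 was prepared with a mini kit, and E8.5 cells were sorted directly into lysis buffer and prepared with a micro kit, so stage and extraction cannot be told apart. The label text of the first E9.5 array names it as the second, and both arrays were kept as separate samples after their titles.

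Primitive erythroid cells are the first blood cells of the mouse embryo. They arise in the blood islands of the yolk sac, enter the vessels as the heart begins to beat, and mature in the bloodstream as a cohort that fills with embryonic hemoglobin, rebuilds its membrane around a spectrin skeleton and finally loses its nucleus. The comparison asks which transcripts change around the day on which these cells begin to circulate.

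Of the 45719 probes, 14070, 13801 and 13475 were detected on E9.5 replicates 1 to 3, and 14802, 15387 and 14176 on E8.5 replicates 1 to 3, detection meaning a detection p under 0.05. The deposited signals of the 6 arrays already shared 1 distribution, with 5 quantiles differing by at most 0.305% between arrays. Arrays correlated at 0.9666 to 0.9836 within E9.5, at 0.9836 to 0.9883 within E8.5 and at 0.9347 to 0.9621 between the stages. Levels below are normalized log2 signals, and differences are E9.5 minus E8.5 on that log2 scale with their standard errors (SE). The 9 primitive erythroid marker genes with a probe were all detected, with summed linear levels of 37330 to 52470 at E9.5 and 28320 to 41860 at E8.5. The embryonic beta globin Hbb-y was not analysed here. The number of arrays limits the precision of every value. Several genes that most cells use, among them Pgk1, Npm1 and Rhoa, were not detected on any of the arrays, so a missing signal does not show that a transcript is missing.

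Of 7971 genes tested, 547 were higher and 711 lower at E9.5 at an adjusted p under 0.05 (limma, Benjamini-Hochberg). That is 15.8% of the genes tested, 6.86% higher and 8.92% lower. The median difference of all genes was -0.05, and 306 genes rose and 171 fell by more than 2-fold. In 2785 genes, 34.9% of those tested, the 3 arrays of one stage did not overlap the 3 of the other, with 13.5% higher and 21.5% lower at E9.5. Among the called genes 1237 had no overlap. The count of calls depended on single arrays: it was 833 without E8.5 replicate 2, 781 without E8.5 replicate 3 and 1652 without E9.5 replicate 3. The lower genes numbered 395 without E9.5 replicate 2, and 402 or 368 with E8.5 replicate 2 or 3 left out.

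**Figure D1:**
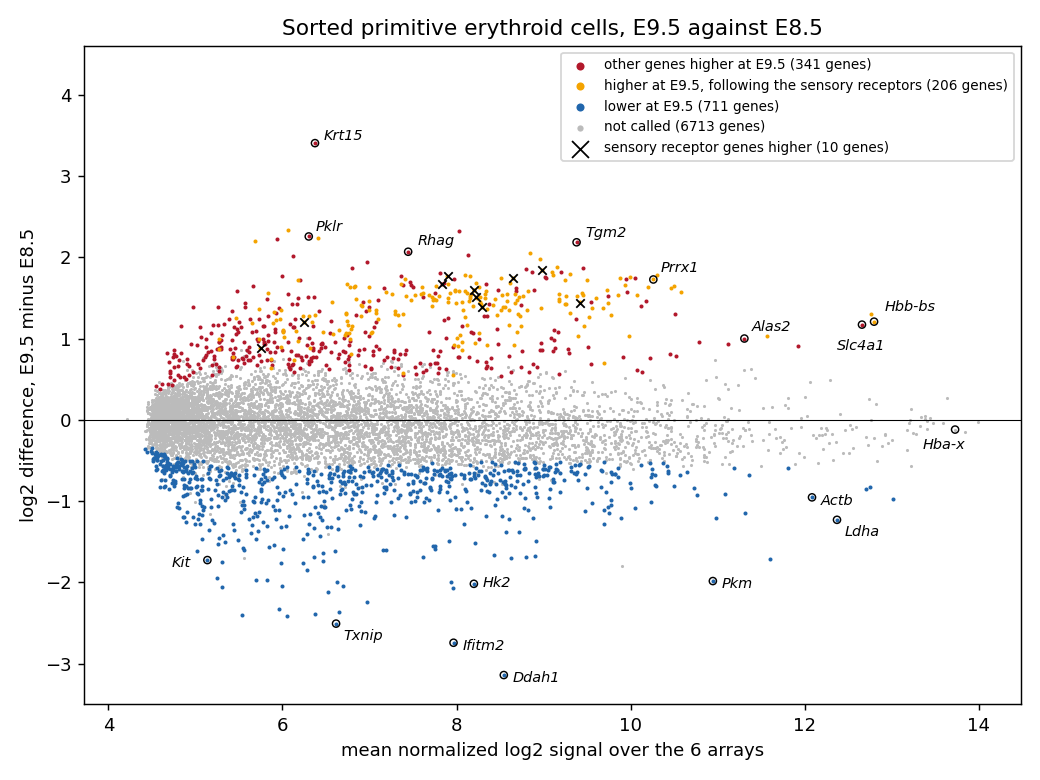
Each point is 1 of 7971 genes, with the mean normalized log2 signal of the 6 arrays on the horizontal axis and the log2 difference, E9.5 minus E8.5, on the vertical axis. Red and orange points are the 547 genes higher at E9.5, blue points the 711 lower, crosses 10 sensory receptor genes, and orange the 206 genes that follow the mean profile of those receptors over 15 arrays at r over 0.9; the orange points gather near a difference of 1.43.

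The largest increase was that of the keratin gene Krt15, which is otherwise known from epithelia. It measured 7.79, 8.28 and 8.16 on the E9.5 arrays, against 4.40, 5.35 and 4.26 on the E8.5 arrays, a difference of 3.40 ± 0.27 (SE, adjusted p = 1.8e-05). All 3 E9.5 values lay above all 3 E8.5 values, which the choice of the largest changes required. At E8.5 the Krt15 signal passed detection on 1 of 3 arrays. Acss1, a mitochondrial enzyme that turns acetate into acetyl-CoA, rose by 2.33 ± 0.23, and Tgm2, a transglutaminase that crosslinks proteins, by 2.18 ± 0.21. Pdzk1ip1, whose gene neighbours Tal1 in the mouse genome, rose by 2.22 ± 0.27. Nudt4, a hydrolase of inositol pyrophosphates, rose by 2.02 ± 0.19 and Ociad2 by 2.01 ± 0.25. C1qtnf4 (2.23 ± 0.22), Ripor3 (2.05 ± 0.19), 4930523C07Rik (2.33 ± 0.26) and the interferon-inducible GTPase Igtp (2.2 ± 0.19, detected on 2 of 3 E8.5 arrays) complete the 12 largest increases with Pklr and Rhag, which are described with their groups.

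The largest decrease was that of Ddah1, which breaks down methylated arginines that inhibit nitric oxide synthases. Ddah1 measured 8.25, 6.57 and 6.09 at E9.5, against 10.51, 9.84 and 9.99 at E8.5, a difference of -3.14 ± 0.40 (adjusted p = 0.00012). E9.5 replicate 1 stood above the other E9.5 arrays and, as the choice required, below every E8.5 array. The other probe of the gene gave -3.25. The endoplasmic reticulum calcium pump Atp2a3 fell by 2.37 ± 0.22, the sterol exporter Abcg1 by 2.12 ± 0.30 and the microtubule protein Spef1 by 2.07 ± 0.25. Emb, which encodes a chaperone of lactate transporters, was at least 4.16-fold lower (adjusted p = 0.0001), being detected on no E9.5 array. Its levels were 4.30, 4.34 and 4.19 at E9.5, at background, and 5.77, 6.97 and 6.26 at E8.5. A fold given as at least so much compares stage means and leaves out the spread between arrays. The other members of the 12 largest decreases, Ifitm2, Txnip, Prtg, Gstm2, Ifitm1, Fscn1 and Gsta4, are given with their groups.

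The increases included genes not known for expression in red cells. Among 118 odorant, vomeronasal, trace amine and Mas-related receptor genes tested, 10 (8.47%) were higher at E9.5 and 1 was lower, a share of higher genes near the 6.86% of all genes tested. They were examined after their values were seen. Their differences ran from 0.88 to 1.84 with a median of 1.56, at mean levels of 5.75 to 9.42, while the uncalled receptor genes had a median level of 4.63. Taar2, a trace amine receptor, measured 8.56, 9.24 and 8.54 at E9.5, against 7.15, 7.07 and 6.82 at E8.5 (1.77 ± 0.21, adjusted p = 8.2e-05), and no array of E8.5 reached the E9.5 values. Among genes with a mean level above 7, differences of 1 to 1.25 were found for 31 genes, of 1.25 to 1.5 for 59 and of 1.5 to 1.75 for 79, and the count fell to 18 for differences of 1.75 to 2.

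The likeness of every gene to the mean profile of these 10 receptor genes was measured over the 15 arrays with 1 round of amplification from E8.5 to E12.5, leaving out E8.5 replicates 4 to 6. The points share stages, slides and normalization, and the correlation is a description. Of the 547 higher genes 206 (37.7%) followed the receptors at r over 0.9, with a median difference of 1.43 and quartiles of 1.19 and 1.56, against 2.63% of all genes tested. The profile averages genes chosen for being higher at E9.5, and the 15 arrays include these 6, so that it would hold higher and not lower genes was fixed by the choice. The followers included Flt4 (r = 0.979), Rbl1 (0.979), Prrx1 (0.964), Egln3 (0.960), Kdr (0.938), Jam3 (0.935) and Hif3a (0.927), and also the adult globins Hbb-bs (0.946) and Hbb-bt (0.902). Rhag (0.890), Alas2 (0.878) and Kel (0.867) lay below that bound, and Pklr (0.495) and Tgm2 (0.382) far below it. What these genes share beside the profile, and its part in the results below, was not tested. Without the followers 976 genes were called, 320 higher and 656 lower.

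Some hemoglobin genes lay near the top of the scale at both stages and did not pass, and others rose. Of 6 globin genes tested 3 rose and none fell, with a median difference of 0.58. The embryonic alpha globin Hba-x measured 13.53, 13.43 and 14.05 at E9.5, against 13.43, 13.89 and 14.05 at E8.5 (-0.12 ± 0.24, adjusted p = 0.79), and the stages overlapped. The embryonic beta globin Hbb-bh1 differed by -0.11 ± 0.22 (adjusted p = 0.80) and Hba-a1 by -0.05 ± 0.24 (adjusted p = 0.93). The other, dimmer Hbb-bh1 probe gave 0.95 and was called (adjusted p = 0.0195), so the 2 probes of this gene disagree. Hba-x ranked 23, 32 and 1 among all probes at E9.5 and 32, 3 and 1 at E8.5, and since the arrays share 1 distribution, a probe at the top rank has the same value on each. The adult beta globin Hbb-bs measured 13.33, 13.39 and 13.48 at E9.5, against 12.40, 12.15 and 12.04 at E8.5, and rose by 1.21 ± 0.19 (adjusted p = 0.00063). Every E9.5 array was above every E8.5 array. Hbb-bt rose by 1.30 ± 0.24 and Hbb-b2 by 1.51 ± 0.31. Hbb-b2 was not called when 15 arrays were fitted together (adjusted p = 0.105). The adult beta globin genes are near-identical copies, so a change cannot be assigned to 1 of them.

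In heme synthesis 3 of 17 tested genes rose (17.6%) and 2 fell (11.8%), with a median difference of 0.31. The shares of all genes tested were 6.86% and 8.92%. Alas2, the erythroid enzyme that makes the first committed intermediate of heme, measured 11.81, 11.57 and 12.04 at E9.5, against 10.74, 10.72 and 10.96 at E8.5, and rose by 1.00 ± 0.19 (adjusted p = 0.002). The ferrochelatase Fech, which inserts iron in the last step, rose by 1.08 ± 0.18, and Slc6a9, a glycine transporter, by 0.90 ± 0.18, with 0.14 on its other probe (not called). The stages did not overlap for any of these 3 genes. Alas1, the form of the first enzyme used by most other cells, fell by 0.77 ± 0.18 (adjusted p = 0.0096, but 0.058 without E8.5 replicate 2 or 3). Hmox1, the oxygenase that degrades heme, fell by 1.42 ± 0.20 and was detected on 1 of 3 E9.5 arrays. Under cyclic loess 6 members of the list rose.

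Iron handling had 4 of 17 members higher (23.5%) and 1 lower (5.88%), against 6.86% and 8.92% of all genes tested. Tfr2, a transferrin receptor that binds the erythropoietin receptor, measured 5.6, 6.10 and 6.16 at E9.5, against 4.36, 4.65 and 4.67 at E8.5, and rose by 1.39 ± 0.20 (adjusted p = 0.00029). It was detected on 2 of 3 E8.5 arrays, and the stages did not overlap. The iron exporter ferroportin, Slc40a1, rose by 0.94 ± 0.19 and the mitochondrial iron importer mitoferrin, Slc25a37, by 0.79 ± 0.18. Tfrc, the main receptor for iron-laden transferrin, rose by 0.58 ± 0.18 (adjusted p = 0.041), and leaving out 1 array raised that p to as much as 0.18. E9.5 replicate 3 was the only array whose removal left Tfrc called.

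Of 18 genes tested for red cell surface proteins 8 were higher (44.4%) and 1 lower (5.56%), against 6.86% and 8.92% of all genes tested. The median difference of the list was 0.41, and 11 differences were above 0. Rhag, the Rh-associated ammonia channel, measured 8.33, 8.25 and 8.86 at E9.5, against 5.92, 6.98 and 6.33 at E8.5, and rose by 2.07 ± 0.25 (adjusted p = 0.0001). Its 3 probes gave 2.07, 1.88 and 1.78. Kel, the Kell blood group endopeptidase, measured 9.38, 8.99 and 9.45 at E9.5, against 7.24, 8.14 and 7.64 at E8.5, and rose by 1.6 ± 0.22 (adjusted p = 0.00026). Slc4a1, the band 3 anion exchanger that anchors the skeleton, measured 13.14, 13.08 and 13.52 at E9.5, against 11.48, 12.45 and 12.29 at E8.5, and rose by 1.17 ± 0.25 (adjusted p = 0.0051). For all 3 the lowest E9.5 array was above the highest E8.5 array, which was replicate 2 each time. The water and glycerol channel Aqp3 (1.65 ± 0.22), the adhesion molecule Icam4 (1.22 ± 0.19, other probe 0.47 and not called), Ermap (1.25 ± 0.25), Art4 (0.69 ± 0.18) and Xk (0.78 ± 0.21) were also higher. Leaving out 1 array raised the adjusted p of Art4 to as much as 0.0971 and that of Xk to 0.0981. The member that fell was Cd44, a hyaluronan receptor, at least 2.26-fold lower and detected on no E9.5 array, while the other 2 probes of Cd44 differed by 0.01 and -0.06.

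The membrane skeleton had 5 of 11 members higher (45.5%) and 3 lower (27.3%), against 6.86% and 8.92% of all genes tested. Erythroid beta spectrin, Sptb, measured 12.47, 12.57 and 12.10 at E9.5, against 11.58, 11.34 and 11.49 at E8.5, and rose by 0.91 ± 0.19 (adjusted p = 0.0049). Ankyrin 1, Ank1, which ties spectrin to band 3, rose by 0.84 ± 0.17, with 0.64 and -0.05 on its other probes, and dematin, Dmtn, an actin bundler of the skeleton, by 0.87 ± 0.17. The adducins Add1 (0.85 ± 0.22) and Add2 (0.86 ± 0.23) rose as well. The 3 members that fell were all of the actin filament: the tropomyosins Tpm1 (-0.91 ± 0.19) and Tpm3 (-0.66 ± 0.19) and Actb (-0.95 ± 0.22). Actb is measured by 4 probes that disagree, the brightest at -0.95 and another at 0.77, both called, and its call was lost without E8.5 replicate 3 (adjusted p = 0.054). With E8.5 replicate 3, E9.5 replicate 1 or E9.5 replicate 2 left out, 3 of the 11 members were higher, Add1 and Add2 being lost each time. Leaving out 1 array also raised the adjusted p of Tpm3 to as much as 0.118.

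Promoters of red cell genes were searched for motifs of factors known from red cells. The windows are RefSeq promoters of GRCm38.p6, 300 bases around the first start listed for each gene, printed 5′ to 3′ on the gene's strand, and motifs were counted on both strands. The letters AGATAA or TGATAA, bound by GATA factors, occurred in 50% of 14 red cell surface promoters, 25% of 8 membrane skeleton promoters and 13.3% of 15 heme synthesis promoters. They occurred in 37.5% of 16 glycolysis promoters, a list most of whose called members fell, in 14% of the promoters of higher genes, in 9.46% of those of lower genes and in 10.7% of those of all genes tested (19% of 27025 promoters). CCACACCC, bound by KLF1, occurred in 1 of 14 surface promoters (7.14%), 0 of 15 heme synthesis, 0 of 8 membrane skeleton and 6.25% of glycolysis promoters. It occurred in 5.81% of higher, 3.21% of lower and 3.72% of tested genes. TGACTCA, bound by NF-E2 and AP-1 proteins, occurred in 4.42% of higher, 2.53% of lower and 3.13% of tested genes. Rhag, Kel and Alas2 are shown as red cell genes that rose, in lower case with GATA letters, and for Kel also TGACTCA, in capitals.
Rhag, chr17:40810899-40811198, plus strand: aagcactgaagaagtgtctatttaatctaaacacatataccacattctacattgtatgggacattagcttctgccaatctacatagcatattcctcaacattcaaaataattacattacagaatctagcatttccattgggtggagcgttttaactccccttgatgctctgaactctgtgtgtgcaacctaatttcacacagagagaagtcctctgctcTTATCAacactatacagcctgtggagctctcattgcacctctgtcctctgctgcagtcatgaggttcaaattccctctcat
Kel, chr6:41704276-41704575, minus strand: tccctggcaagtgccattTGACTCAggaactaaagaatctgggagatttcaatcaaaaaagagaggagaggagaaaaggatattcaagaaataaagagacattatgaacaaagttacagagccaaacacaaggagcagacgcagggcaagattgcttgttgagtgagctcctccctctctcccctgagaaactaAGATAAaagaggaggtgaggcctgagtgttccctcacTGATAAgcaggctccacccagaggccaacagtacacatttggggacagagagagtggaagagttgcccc
Alas2, chrX:150547167-150547466, plus strand: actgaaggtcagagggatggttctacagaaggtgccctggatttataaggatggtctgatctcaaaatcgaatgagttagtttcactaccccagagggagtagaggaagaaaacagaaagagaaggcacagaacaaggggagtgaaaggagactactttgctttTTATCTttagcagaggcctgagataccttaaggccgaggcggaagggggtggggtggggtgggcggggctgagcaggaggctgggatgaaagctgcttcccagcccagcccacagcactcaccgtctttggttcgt
A match describes these letters only and is no evidence of binding.

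Of 22 erythroid transcription factor genes tested 2 rose and 2 fell (9.09% each), shares close to those of all genes, with a median difference of 0.01. Lmo2, the adaptor of the complex of TAL1 and GATA1, measured 9.55, 9.36 and 9.62 at E9.5, against 10.70, 10.58 and 10.49 at E8.5, and fell by 1.08 ± 0.17 (adjusted p = 0.0006) with no overlap. Mafg, a small partner of NF-E2, fell by 0.89 ± 0.19, and Zbtb7a, a repressor active at globin genes, rose by 1.00 ± 0.21, with 0.49 on its other probe (not called). Klf1, the activator of adult beta globin and many red cell genes, measured 11.79, 11.47 and 11.56 at E9.5, against 10.69, 11.41 and 10.90 at E8.5 (0.61 ± 0.21, adjusted p = 0.062, 95% interval 0.16 to 1.06). The stages did not overlap for Klf1, and it was called under cyclic loess (adjusted p = 0.022). Gata1 (0.23 ± 0.18), Tal1 (0.38 ± 0.20), Nfe2 (0.04 ± 0.20) and the erythropoietin receptor gene Epor (0.32 ± 0.19) did not pass.

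Regulators of blood progenitors were lower at E9.5 in 6 of 15 tested genes (40%), and 1 was higher (6.67%), with a median difference of -0.46. The shares of all genes tested were 8.92% and 6.86%. Leaving out 1 array gave 5 to 7 lower members. Other ways of processing, apart from a test against 1.5-fold, gave 2 to 9. Kit, the stem cell factor receptor, measured 4.24, 4.25 and 4.33 at E9.5, at background, against 6.29, 6.20 and 5.51 at E8.5, and was at least 3.26-fold lower (adjusted p = 9.1e-05). Gata2 was at least 2.43-fold lower (adjusted p = 0.00032), Runx1 at least 2.07-fold (adjusted p = 0.00026) and Hhex at least 2.16-fold (adjusted p = 0.0045). These 4 genes were detected on all E8.5 arrays and on no E9.5 array. The folds compare stage means without the spread between arrays, and the fitted difference of Hhex was -1.11 ± 0.23. In pools of sorted cells, fewer cells of a type and less RNA per cell cannot be told apart. The RNA-binding protein Igf2bp3, known from fetal tissues, fell by 0.90 ± 0.20 while remaining detected, but of its 3 other probes 2 were not called (-0.13 each). The member that rose was Kdr, the VEGF receptor of early mesoderm and endothelium, which followed the sensory receptors.

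Genes of erythropoietin and JAK-STAT signalling included 7 higher (29.2%) and 3 lower members of 24. The shares of all genes tested were 6.86% and 8.92%, so the share of lower members was not far above that of all genes. Erythropoietin acts through the kinase JAK2 and the factor STAT5, which switches on feedback inhibitors. Cish, such an inhibitor, measured 7.46, 7.64 and 8.09 at E9.5, against 5.30, 6.39 and 5.91 at E8.5, and rose by 1.86 ± 0.26 (adjusted p = 0.00025) with no overlap. The inhibitor Socs2 rose by 1.00 ± 0.21 and the kinase Jak2 by 0.97 ± 0.19. The r with the sensory receptors was 0.895 for Jak2, 0.843 for Cish and 0.839 for Socs2, below the bound of 0.9. Socs1 (1.35 ± 0.23) and the cytokine Osm (1.47 ± 0.22) rose too, and both followed the sensory receptors (r = 0.965 and 0.949). The other Socs1 probe differed by 0.30 and was not called. The survival factor Bcl2l1 rose by 0.68 ± 0.19 (adjusted p = 0.024, against 0.12 and 0.064 after E8.5 replicate 1 or 2 was left out). The phosphatase Ptpn6 fell by 0.82 ± 0.17. With E8.5 replicate 3 or E9.5 replicate 2 left out, 1 member of the list was lower, and with E8.5 replicate 1 left out 5 were higher.

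**Figure D2:**
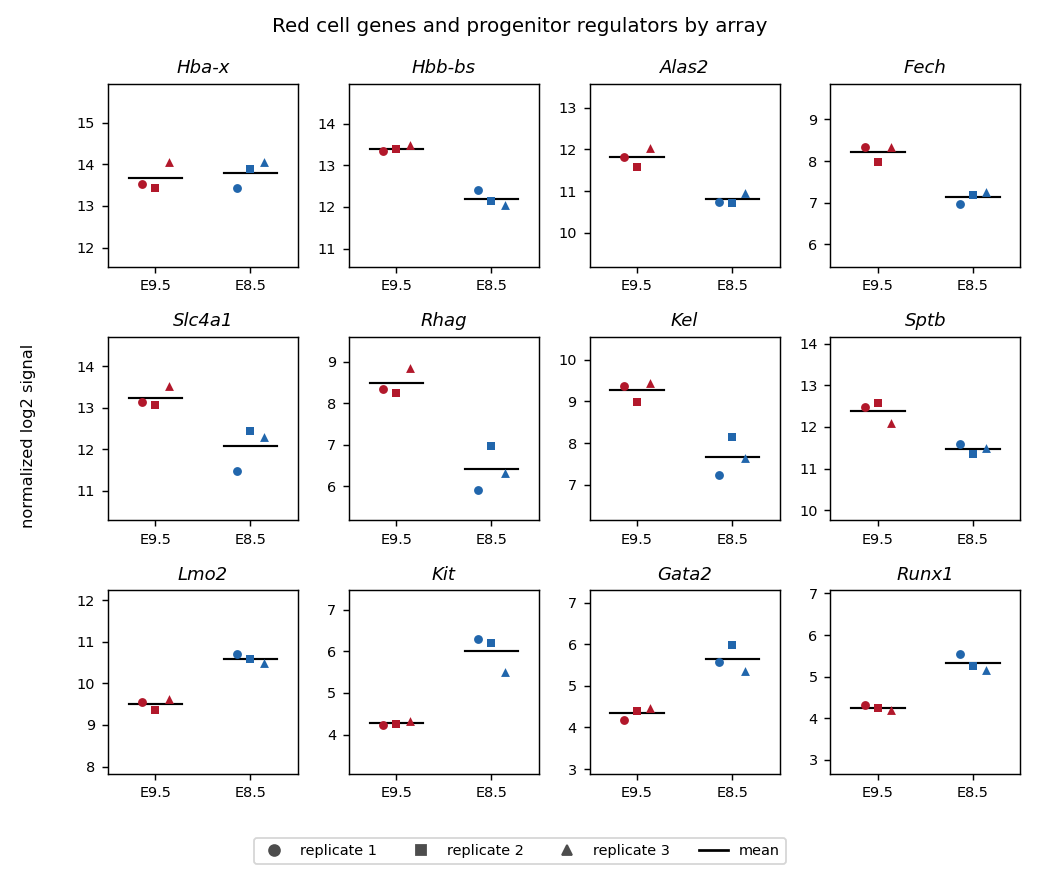
Normalized log2 signal of 12 genes on each array, E9.5 in red on the left and E8.5 in blue on the right, with symbols for replicates 1 to 3 and a bar for the mean of 3; every panel spans the same range of log2 units. Hba-x overlaps between stages, Hbb-bs to Sptb are higher on all E9.5 arrays, and Lmo2, Kit, Gata2 and Runx1 are lower on all E9.5 arrays.

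Glycolysis had the largest share of lower genes of all lists with at least 10 genes tested. Of 16 glycolytic genes tested 9 fell (56.2%) and 1 rose, with a median difference of -0.88 against -0.05 for all genes. The pathway turns glucose into pyruvate, and red cells use a pyruvate kinase of their own. Pkm, the pyruvate kinase of embryonic and most other tissues, measured 10.21, 9.75 and 9.90 at E9.5, against 12.07, 11.57 and 12.17 at E8.5, and fell by 1.98 ± 0.20 (adjusted p = 4.1e-05). Pklr, the kinase of red cells and liver, measured 7.12, 7.61 and 7.55 at E9.5, against 5.02, 5.39 and 5.11 at E8.5, and rose by 2.26 ± 0.21 (adjusted p = 2.8e-05). The stages did not overlap for either gene.

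The first enzyme, Hk2, which traps glucose by phosphorylation, measured 7.66, 6.75 and 7.16 at E9.5, against 9.34, 9.06 and 9.22 at E8.5, and fell by 2.02 ± 0.22 (adjusted p = 5.3e-05). Ldha, which turns pyruvate into lactate, measured 11.82, 11.76 and 11.69 at E9.5, against 12.85, 13.03 and 13.08 at E8.5, and fell by 1.23 ± 0.18 (adjusted p = 0.00038). No E9.5 array reached the E8.5 values for Hk2 or Ldha. Pgm1 (-1.6 ± 0.21), Aldoa (-1.21 ± 0.21), Tpi1 (-1.15 ± 0.20), Gapdh (-0.98 ± 0.23) and Pfkl (-0.83 ± 0.17) fell, and Pfkp was at least 1.90-fold lower. Leaving out 1 array at a time gave 8 or 9 lower members, and Gapdh was the one lost, with E8.5 replicate 2 left out (adjusted p of 0.0608). Bpgm, which diverts a glycolytic intermediate into the regulator of oxygen binding by hemoglobin, rose by 1.65 ± 0.26 (adjusted p = 0.00059, r = 0.904 with the sensory receptors). Car1, a carbonic anhydrase, fell by 1.97 ± 0.26 and was detected on 2 of 3 E9.5 arrays.

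Txnip, an inhibitor of glucose uptake, measured 5.39, 5.51 and 5.19 at E9.5, against 8.33, 7.32 and 7.96 at E8.5, and fell by 2.51 ± 0.24 (adjusted p = 3.4e-05). The glucose transporter Slc2a3 fell by 1.18 ± 0.30 (adjusted p = 0.016), and its call was lost after E8.5 replicate 2 (adjusted p = 0.061) or E9.5 replicate 2 (adjusted p = 0.079) was left out. The widely expressed glucose transporter Slc2a1 did not pass (-0.18 ± 0.17, 95% interval -0.55 to 0.19). Of 35 respiratory chain genes 1 rose, Ndufs3 (0.61 ± 0.16, other probe 0.34 and not called), with a list median of -0.23, and leaving out any one of the E8.5 arrays ended its call (adjusted p = 0.054 to 0.102). None of 18 genes of the TCA cycle was called.

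Hypoxia-responsive genes did not move one way, with 3 of 21 higher and 3 lower (14.3% each, against 6.86% and 8.92% of all genes tested). Egln3, a prolyl hydroxylase induced by hypoxia, rose by 1.82 ± 0.21 on its brighter probe, and its other probe differed by -0.30. Hif3a rose by 1.52 ± 0.24, with 2.48 on its other probe. Both genes followed the sensory receptors. The growth factor Vegfa (-0.41 ± 0.20) and the kinase Pdk1 (0.56 ± 0.18, adjusted p = 0.051) did not pass. The core ACGTG of hypoxia response elements occurred in 43.8% of 16 glycolytic promoters, 39.3% of 28 ribosome assembly promoters, 33.3% of 15 heme synthesis promoters and in 24.9% of those of higher, 25% of lower and 26.6% of tested genes. The E-box CACGTG, which contains ACGTG and is bound by MYC and related factors, occurred in 18.8% of the glycolytic promoters, in 10% of those of higher, 12% of lower and 10.6% of tested genes. Ldha is shown as a glycolytic gene that fell, with both motifs in capitals.
Ldha, chr7:46845554-46845853, plus strand: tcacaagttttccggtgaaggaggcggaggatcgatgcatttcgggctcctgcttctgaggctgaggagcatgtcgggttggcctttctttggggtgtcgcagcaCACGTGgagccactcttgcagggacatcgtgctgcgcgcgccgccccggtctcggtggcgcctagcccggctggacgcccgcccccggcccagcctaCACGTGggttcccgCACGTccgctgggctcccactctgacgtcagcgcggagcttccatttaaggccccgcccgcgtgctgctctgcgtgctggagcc

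Genes that build ribosomes had lower levels at E9.5. All 31 ribosome assembly genes tested had a difference below 0, with a median of -0.42, and 8 fell (25.8%). Nucleolin, Ncl, which works on ribosomal RNA in the nucleolus, measured 8.73, 8.49 and 8.5 at E9.5, against 9.72, 9.30 and 9.61 at E8.5, and fell by 0.97 ± 0.18 (adjusted p = 0.0018). Its second probe gave -0.77, and the stages did not overlap. The helicase Ddx21 (-0.96 ± 0.18, other probe -0.53 and not called), Nip7 (-0.85 ± 0.17), Rrp9 (-0.87 ± 0.19) and Nop58 (-0.80 ± 0.17) fell as well. Between 5 and 14 members were lower when 1 array was left out, 5 without E8.5 replicate 2. CACGTG occurred in 25% of 28 promoters of the list, against 10.6% of tested genes. Myc itself differed by -0.02 ± 0.20 (adjusted p = 0.96). Of 31 cytosolic ribosomal protein genes 4 fell (12.9%, against 8.92% of all genes tested), with a median of -0.12.

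Synthesis of nucleotides, serine and polyamines had 8 of 19 members lower and none higher, with a median of -0.49. Dhodh, of pyrimidine synthesis, fell by 0.79 ± 0.17 and Psat1, of serine synthesis, by 0.84 ± 0.19. Only 2 members were lower without E8.5 replicate 1 or without E9.5 replicate 2. DNA replication had 7 of 38 members lower and none higher (18.4%, median -0.28). Cyclin E1, Ccne1, which drives entry into S phase, measured 7.44, 7.5 and 7.39 at E9.5, against 8.85, 8.66 and 8.70 at E8.5, and fell by 1.29 ± 0.17 (adjusted p = 0.00013), although its dimmer probe differed by 0.07. The origin subunit Orc6 fell by 0.88 ± 0.17. Leaving out E8.5 replicate 3 or E9.5 replicate 2 left 2 lower members of that list. None of 22 mitosis genes was called. Among cyclins and inhibitors Rbl1 (1.62 ± 0.19, following the sensory receptors), Ccng1 (0.77 ± 0.18) and the inhibitor Cdkn2c (0.60 ± 0.18) rose, and after E8.5 replicate 3 was left out the calls of Ccng1 and Cdkn2c were lost (adjusted p = 0.069 and 0.09). The call of Cdkn2c was lost with 3 other arrays left out as well, at an adjusted p of up to 0.133.

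**Figure D3:**
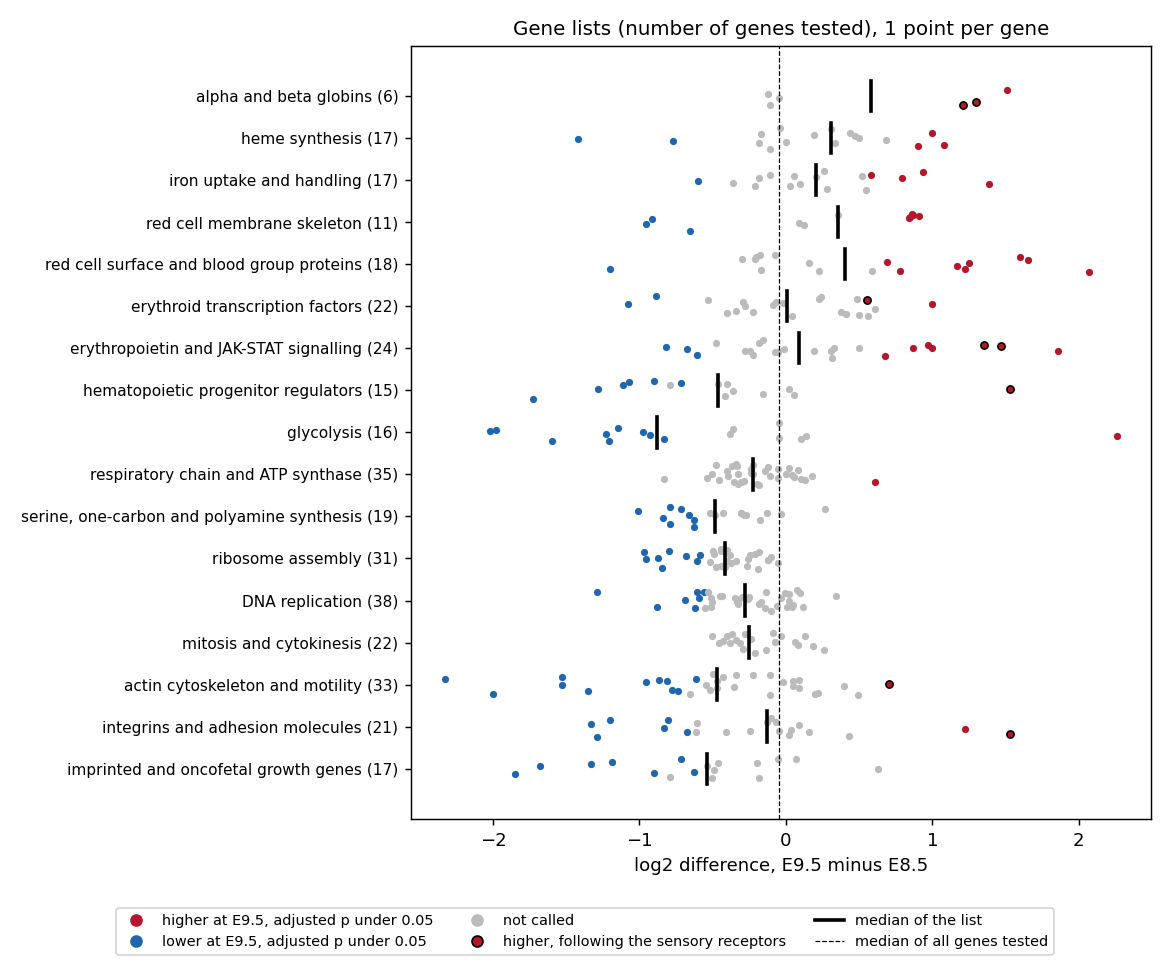
Each point is the log2 difference, E9.5 minus E8.5, of 1 tested gene of the list named at the left with its number of tested genes. Red points are higher and blue points lower at E9.5 at an adjusted p under 0.05, black outlines mark genes following the sensory receptors, the solid bar is the list's median and the dashed line the median of all genes, -0.05; the glycolysis median lies at -0.88 and that of red cell surface proteins at 0.41.

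Genes of the actin cytoskeleton and motility were lower in 11 of 33 cases (33.3%) and higher in 1 (3.03%), with a median of -0.47. The shares of all genes tested were 8.92% and 6.86%. Actin and motility genes move cells through tissue, and primitive erythroid cells pass from the blood islands into vessels at about this age. A link between that passage and the decreases was not tested. Rhob, an endosomal GTPase, measured 5.40, 5.33 and 6.14 at E9.5, against 7.64, 7.48 and 7.74 at E8.5, and fell by 2.00 ± 0.23 (adjusted p = 6.8e-05). Fascin, Fscn1, which bundles actin in protrusions, fell by 2.33 ± 0.24 and was detected on 2 of 3 E9.5 arrays. Was, the actin nucleation promoter of blood cells, fell by 1.35 ± 0.19, S100a10 by 1.53 ± 0.22 and Marcksl1 by 1.53 ± 0.28. The stages did not overlap for these 5 genes, and Was and S100a10 were each detected on 1 of 3 E9.5 arrays. The member that rose, Myl12b (0.70 ± 0.20, adjusted p up to 0.115 with 1 array left out), followed the sensory receptors. Leaving out 1 array gave 8 to 12 lower members.

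In adhesion 6 of 21 genes were lower (28.6%) and 2 higher (9.52%), against 8.92% and 6.86% of all genes tested. The focal adhesion protein vinculin, Vcl, measured 6.27, 5.87 and 5.40 at E9.5, against 7.08, 7.16 and 7.28 at E8.5, and fell by 1.33 ± 0.22 (adjusted p = 0.00098). Fibronectin, Fn1 (-0.81 ± 0.16), galectin 1, Lgals1 (-0.83 ± 0.20, adjusted p up to 0.0665 with 1 array left out), and Pecam1 (-1.29 ± 0.23) fell, with Fn1 and Pecam1 each detected on 1 of 3 E9.5 arrays. Jam3 rose by 1.53 ± 0.23 and followed the sensory receptors. The integrin genes Itga4 (0.09 ± 0.13) and Itgb1 (-0.05 ± 0.19) and the chemokine receptor gene Cxcr4 (-0.11 ± 0.15) did not pass. Of 9 flow and sphingosine phosphate genes 3 fell: Klf6 (-1.6 ± 0.30), the ADP receptor gene P2ry1 (-1.02 ± 0.23) and Sphk1 (-0.72 ± 0.22), and Sphk1 lost its call with any of 4 arrays left out (adjusted p = 0.075 to 0.153).

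**Figure D4:**
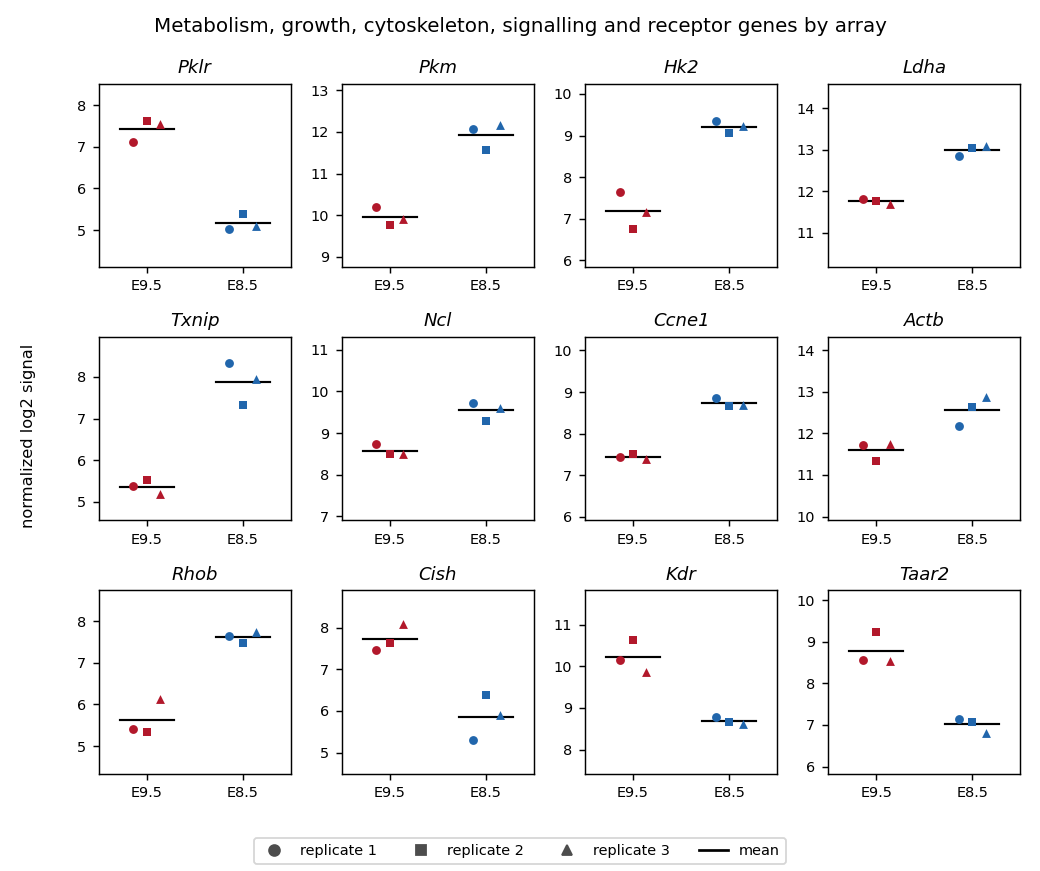
Normalized log2 signal of 12 genes on each array, E9.5 in red on the left and E8.5 in blue on the right, with symbols for replicates 1 to 3 and a bar for the mean of 3; every panel spans the same range of log2 units. Pklr lies between 7.12 and 7.61 at E9.5 and between 5.02 and 5.39 at E8.5, and Pkm moves the other way. Kdr and the receptor gene Taar2 are higher on all E9.5 arrays.

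Embryonic growth genes fell in 7 of 17 cases (41.2%, against 8.92% of all genes tested), with none higher and a median of -0.54. Leaving out 1 array gave 5 to 8 lower members. Other ways of processing, apart from a test against 1.5-fold, gave 4 to 10. Igf2, the imprinted fetal growth factor, measured 8.33, 7.37 and 8.5 at E9.5, against 9.44, 10.23 and 9.56 at E8.5, and fell by 1.68 ± 0.28 (adjusted p = 0.00087). The imprinted gene Ndn fell by 1.85 ± 0.29 and Impact by 1.33 ± 0.22, with -0.52 on its other probe (not called). Dnmt3b, which sets new DNA methylation in the early embryo, measured 7.28, 6.53 and 7.04 at E9.5, against 8.33, 8.85 and 8.32 at E8.5, and fell by 1.55 ± 0.22 (adjusted p = 0.00029). The stages did not overlap for Igf2 or Dnmt3b. The pluripotency factor Sall4 was at least 2.75-fold lower, and the activin receptor gene Acvr2b fell by 1.6 ± 0.23.

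Membrane proteins and enzymes of defence moved in both directions. The interferon-induced transmembrane genes Ifitm2 and Ifitm1 were among the largest decreases. Ifitm2 measured 7.06, 6.58 and 6.14 at E9.5, against 9.84, 9.25 and 8.93 at E8.5, and fell by 2.74 ± 0.26 (adjusted p = 2.8e-05). Ifitm1 fell by 2.39 ± 0.21, and since these genes are near-identical in parts, a single member is uncertain. Among glutathione transferases, peroxidases and related genes 4 of 18 were higher and 4 lower. Gsta4, which clears lipid peroxidation products, fell by 2.24 ± 0.19, and Gstm2 was at least 5.28-fold lower (adjusted p = 1.8e-05), with paralogues that share sequence. The 2 other Gstm2 probes differed by -0.68 and -0.43, and the last was not called. Srxn1 (1.04 ± 0.21), Mgst3 (1.03 ± 0.21) and Gstk1 (0.99 ± 0.22, adjusted p of 0.0545 with E8.5 replicate 3 left out) rose, Mgst3 with an r of 0.941 to the sensory receptors.

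Markers of other cell types were examined because the cells were sorted from whole embryos. Of 12 visceral endoderm markers tested 4 were lower and none higher, with a median of -0.92 and summed linear levels of 133.2 to 326.1 at E9.5 and 228.4 to 1289 at E8.5. Apoa1, an apolipoprotein of that tissue, measured 5.22, 5.51 and 5.81 at E9.5, against 6.61, 8.0 and 6.99 at E8.5, and fell by 1.69 ± 0.30 (adjusted p = 0.0013). E8.5 replicate 2 had the highest Apoa1. Leaving out E9.5 replicate 2 left 2 lower members, and leaving out single arrays gave up to 8. Of 24 markers with a probe 6, among them Alb, Fgb and Fgg, were not detected on any array. The part of these cells in the decreases above was not tested.

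Among 8 endothelial markers tested 3 were higher and 2 lower, with summed levels of 3016 to 4611 at E9.5 and 1564 to 1718 at E8.5. Flt4, a VEGF receptor, measured 10.58, 11.13 and 10.57 at E9.5, against 9.18, 9.07 and 9.06 at E8.5 (1.66 ± 0.19), and Emcn rose by 1.77 ± 0.20 and Kdr by 1.53 ± 0.20. E9.5 replicate 2 was the highest array for these 3 genes, and their r with the receptors was 0.979, 0.851 and 0.938. That array was also the highest for Taar2, but other higher receptor genes, among them Olfr1006 and Olfr1394, were highest on E9.5 replicate 3. Pecam1 and Egfl7 (-0.78 ± 0.19) fell, and 8 of 24 markers, among them Tie1, Sox17 and Nos3, were not detected on any array. Of the mesenchyme markers Prrx1 rose by 1.73 ± 0.19, following the sensory receptors, and Col4a1 was at least 2.19-fold lower, while Col1a1, Pdgfra and 11 others were not detected.

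Macrophage and leukocyte markers were mostly at background: 16 of 21 with a probe, among them Ptprc and Adgre1, were not detected on any array, and Laptm5 fell by 1.39 ± 0.27. The platelet chemokine Pf4 was at least 2.17-fold higher (adjusted p = 0.00088), being detected on no E8.5 array, and Itga2b (-0.68 ± 0.18) and F2r (-0.61 ± 0.18) fell. Itga2b lost its call with any one of the E8.5 arrays left out (adjusted p of 0.0645 to 0.0744), and F2r with any of 4 arrays left out (adjusted p of 0.0726 to 0.149). Among neural markers the surface receptor Prtg, which is known from the early embryo, fell by 2.42 ± 0.27. Immediate early genes, which respond within minutes to handling or signals, fell in 4 of 12 cases with a median of -0.48. Fos measured 4.80, 4.65 and 5.92 at E9.5, against 6.37, 6.71 and 5.83 at E8.5 (-1.18 ± 0.31, adjusted p = 0.018), so E9.5 replicate 3 overlapped the E8.5 arrays, and the call of Fos was lost with any of 4 arrays left out (adjusted p of 0.0569 to 0.094). Leaving out E9.5 replicate 2 left 1 of these genes lower. Their part in the other differences was not tested.

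The other lists had 1 to 4 called members each, and of all genes tested 6.86% were higher and 8.92% lower. Of 31 cytosolic ribosomal protein genes the 4 that fell included Rpl22 (-1.0 ± 0.20) and Rps19 (-0.95 ± 0.20). In signalling by TGF-beta, activin and BMP 3 of 18 genes fell (16.7%), with Tgfbr1, a receptor, at -0.85 ± 0.20. With E8.5 replicate 2 left out 1 of these 3 stayed lower, and Tgfbr1 was not called (adjusted p of 0.0658). Among WNT, Notch, FGF and Hedgehog genes 1 of 9 rose and 1 fell, in DNA methylation 1 of 10 fell and in autophagy 2 of 21 rose and 1 fell, although no autophagy gene was higher with E9.5 replicate 1 or any of the E8.5 arrays left out. Of 4 epiblast markers tested 2 fell, Dnmt3b and Dppa4 (-0.87 ± 0.20), of 5 neural markers 1 rose and 1 fell, and of 7 cardiac markers 1 fell. Among 6 genes of definitive and fetal liver red cells, the adult globins Hbb-bs and Hbb-bt rose and Kit and Car1 fell.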

How the data were processed

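Each sorted sample was measured on its own Illumina bead array. The deposited intensity values are mean bead signals per probe, which the file headers call non-normalized, although the values of these 6 arrays share 1 distribution. The detection p-value of each probe was deposited with them, per the file headers. A second table deposited by the authors holds processed values that resemble log2 signals; its transform is not stated, and it served as an alternative. The scanner software and its background setting are not given in the sources used here.

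Signals of the 6 arrays were corrected from the detection p-values, given an offset of 16 and quantile-normalized in log2 with neqc of limma 3.58.1 in R 4.3.3 (with data.table, version 1.17.8). Tests covered probes detected (p under 0.05) on 3 or more of the 6 arrays. A single gene symbol was annotated for 29490 probes, several for 8 and none for 16221, giving 17583 symbols. Each gene was represented by its tested probe with the highest mean. Stages were compared with limma's moderated test with an intensity trend on these 6 arrays alone, adjusted by Benjamini-Hochberg over 7971 genes, and a gene was called at an adjusted p under 0.05. The bounds given for undetected genes allow for the detection limit and not for the spread between arrays. A gene detected on no array of a stage has only a bound there. Its fold is that of the brighter stage's mean over the dimmer stage's mean of, on each array, the higher of the lowest detected signal and the probe's own, and is written as at least so much.

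Genes were named by rule: the 12 largest increases and decreases without overlap, up to 5 called members of each of 43 lists by p, and a fixed list of red cell and progenitor genes. Some genes of that last list, among them Cdkn1b, Klf2, Myb, Npm1, Piezo1 and S1pr1, were not tested. Other members of a list were named after their values were seen. The comparison, the members and the lists were chosen with earlier results of these data known. The steps were tested on simulated data. The alternatives were other background corrections and scalings, the processed values, 15 arrays fitted together, other filters, single probes, a test against 1.5-fold, no trend, array weights, a replicate block, averaging E9.5 replicates 1 and 2, and leaving out each array.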

Additional observations from a re-analysis of the deposited data

How the results depend on the processing

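Of 151 called genes named by the rule, 106 lost their call in none of the alternatives that tested them, the test against 1.5-fold and other probes of the gene left aside, and none had its sign turned there. The filter for detection on all 6 arrays left genes such as Kit, Gata2 and Runx1 without a test. The count of 1258 called genes became 229 in the test against 1.5-fold (164 higher, 65 lower). Leaving out 1 array gave 781 to 1652 called, 413 to 677 higher and 368 to 975 lower genes; without E9.5 replicate 2, E8.5 replicate 2 and E8.5 replicate 3 the lower genes were 395, 402 and 368. With no filter on dim probes 463 genes were lower, and with array weights 1131. Without the genes that follow the sensory receptors, an alternative chosen after seeing the data, 320 genes were higher. Other scalings gave 1149 to 1267 calls, and cyclic loess gave the most different split, 50.7% higher against 43.5%. With the title numbers as a replicate block 1617 genes were called (675 higher, 942 lower). Same-numbered arrays deviated together with r of 0.152, -0.118 and 0.434. The E8.5 array that matched best was replicate 1 for E9.5 replicates 1 and 2, and replicate 3 for E9.5 replicate 3. Whether the numbers pair the samples cannot be told from so few arrays. Averaging E9.5 replicates 1 and 2 gave 1043 calls. The cause of these shifts was not tested. In 94 called genes 1 stage was at background, which limits those differences to bounds.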

Other observations

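Values outside the groups above point to further features. Of 3582 tested probes with no gene name, 512 were called at an adjusted p under 0.05. Of 10 BCL2 family genes tested 2 rose at E9.5 (20%) and 1 fell (10%), against 6.86% and 8.92% of all genes tested. Bak1, a pore former of mitochondria, rose by 0.91 ± 0.25 and lost its call with any of 3 arrays left out (adjusted p up to 0.0948), and Bcl2l1 is given above. Bid, which links death receptors to mitochondria, fell by 1.40 ± 0.19 (adjusted p = 0.00017). In the integrated stress response Chac1, which degrades glutathione, was at least 3.86-fold lower at E9.5, being detected on no E9.5 array and on all E8.5 arrays. Its levels were 4.20, 4.31 and 4.32 at E9.5 and 6.88, 5.59 and 6.20 at E8.5. Fgfr2, a fibroblast growth factor receptor, rose by 1.51 ± 0.21 and followed the sensory receptors at r = 0.963, while its other probe differed by 0.05. In the list of interferon-response genes the lysosomal reductase Ifi30 rose by 0.89 ± 0.19, with 0.79 on its other probe. Among 11 called genes another probe of the same gene was called the other way.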
